A study of Mus musculus with 6 samples.

Results

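The data described here are the transcript levels of 10 genes that encode caudal and primitive streak transcription factors, Cdx1, Cdx2, Cdx4, T, Eomes, Nkx1-2, Mixl1, Evx1, Gsc and Mesp1, in mouse embryonic stem cells (mESCs) without DNA methyltransferases. The 10 genes, of 53390 with a value, were chosen on the measured difference between 2i and serum culture, so their levels and fold changes in that comparison are given as a description, without a test, and nothing is read from how many of them differ.

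RNA-seq was performed on 6 libraries of TKO mESCs, a male J1-derived line of the 129S4/SvJae strain that carries deletions in both copies of Dnmt1, Dnmt3a and Dnmt3b. All 6 libraries share that genotype, so the groups compared differ by medium and not by genotype. The labels mention sequencing pools without saying which library was in which, so any part of the pools in the differences was not tested. The 3 TKO-2i libraries came from cells in serum-free N2B27 medium with the MEK inhibitor PD0325901 at 1 µM, the GSK3 inhibitor CHIR99021 at 3 µM and LIF at 1000 U/ml, and the 3 TKO-serum libraries from cells in 15% serum with LIF at 500 U/ml and neither inhibitor. The cells were of 1 line grown without feeders, each library was a stranded poly(A) library from 500 ng of RNA, and the labels name biological replicates but do not say that they were separate cultures, so p-values measure only the spread between these libraries. The libraries held 46228700, 44180642 and 43896549 estimated counts in TKO-2i and 38274042, 51932739 and 44827609 in TKO-serum.

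The caudal-type homeobox factors Cdx1, Cdx2 and Cdx4 bind the Hox clusters and pattern the trunk and tail of the embryo. T, also called Brachyury, marks the primitive streak, the notochord and the progenitors of the tail bud, where Wnt signalling through β-catenin and the TCF/LEF factors is a known activator of T and of the Cdx genes. Eomes, Mixl1, Gsc and Mesp1 belong to the streak itself and to the mesendoderm and early mesoderm that leave it.

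The targeted genes were read first. Dnmt1 gave 6705, 6753 and 6616 estimated counts in TKO-2i and 4985, 6893 and 5910 in TKO-serum. Dnmt3a gave 320, 328 and 314 against 1165, 1563 and 1410, and Dnmt3b gave 851, 895 and 880 against 1663, 2248 and 2020. Transcripts of all 3 genes were thus counted in every library, and values summed over a gene's transcripts do not check the deleted part.

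Of the Cdx genes, Cdx1 had the highest level in TKO-2i, the lowest mean in TKO-serum and the widest gap between media. Cdx1, a caudal factor with a role in vertebral patterning and in the gut (minus strand, chromosome 18, 61018862 to 61036199, mm10), stood at 40.3, 39.5 and 33.7 TPM (transcript abundance scaled for transcript length and library depth) in the 3 TKO-2i libraries and at 0.200, 0.165 and 0.178 TPM in the 3 TKO-serum libraries. The TKO-serum values rest on 9 counts in each library, against 2365, 1818 and 1843 counts in TKO-2i. The media did not overlap, and the fitted log2 fold change was 7.85 ± 0.17 (SE), 230-fold, the 4th largest rise of the 18177 genes fitted. The SE is derived from the test's F statistic, and at 9 counts per TKO-serum library it can be smaller than counting error. The same limit holds for the SE of every gene below with few counts in 1 medium. In bulk RNA, fewer cells with a transcript and less of it per cell cannot be told apart, here and for every gene below.

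Cdx2, which is needed for the trophectoderm and later for the posterior axis and the intestine (minus strand, chromosome 5, 147300805 to 147307270), was the second caudal gene with a gap between media. Its TPM was 3.60, 2.54 and 4.10 in TKO-2i and 0.240, 0.245 and 0.099 in TKO-serum, from 289, 167 and 309 counts against 15, 19 and 7. Every TKO-2i library lay above every TKO-serum library, with a log2 fold change of 4.28 ± 0.35 (19.4-fold). Cdx4, the X-linked member of the family (plus strand, 103321398 to 103330592), was near the limit of detection in all 6 libraries. It gave 4, 8 and 6 counts in TKO-2i and 13, 13 and 8 in TKO-serum, or 0.108 ± 0.044 and 0.208 ± 0.063 TPM (SD, n = 3). The Cdx4 counts met at 8, and its mean was lower in 2i while those of Cdx1 and Cdx2 were higher.

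T and Nkx1-2, both expressed in the caudal epiblast and tail bud, were separated between media as Cdx1 and Cdx2 were. T (plus strand, chromosome 17, 8434423 to 8442496) was at 9.99, 9.78 and 15.8 TPM in TKO-2i and at 0.272, 0.360 and 0.179 TPM in TKO-serum. These levels came from 546, 447 and 806 counts against 13, 14 and 12, and the log2 fold change was 5.58 ± 0.32 (48-fold). Nkx1-2, a homeobox gene of the caudal epiblast (minus strand, chromosome 7, 132594878 to 132599637), was at 7.51, 7.82 and 9.29 TPM in TKO-2i and at 0.092, 0.098 and 0.071 TPM in TKO-serum. The TKO-serum levels of Nkx1-2 rest on 8, 11 and 7 counts, against 805, 744 and 960 in TKO-2i. Its log2 fold change was 6.64 ± 0.19 (99.9-fold). Both genes were separated by medium in every library, and TKO-2i replicate 3 held the highest value of each.

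Eomes and Gsc, genes of the anterior streak and mesendoderm, were present in both media and higher in 2i. Eomes (plus strand, chromosome 9, 118478212 to 118486132) was at 5.68, 6.37 and 5.53 TPM in TKO-2i and at 0.834, 0.999 and 0.952 TPM in TKO-serum, which the fit put at a log2 fold change of 2.81 ± 0.08 (7.02-fold). Gsc, a homeobox gene of the organizer (minus strand, chromosome 12, 104471209 to 104473330), was at 4.50, 4.91 and 3.81 TPM against 1.12, 0.714 and 1.07 TPM, a log2 fold change of 2.36 ± 0.20 (5.13-fold). For both, the lowest TKO-2i library lay above the highest TKO-serum library.

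Mixl1 and Evx1 were at closer levels in the 2 media, and Mesp1 had few counts in both. Mixl1, a homeobox gene of mesendoderm (minus strand, chromosome 1, 180693043 to 180697034), was at 1.24, 1.12 and 1.01 TPM in TKO-2i and at 0.620, 1.01 and 0.867 TPM in TKO-serum. Its log2 fold change was 0.51 ± 0.20, or 0.67 without TKO-serum replicate 2. That value was 0.38 without TKO-serum replicate 1, 0.40 without TKO-2i replicate 1 and 0.22 on log2(TPM + 1). For Mixl1 the media overlapped on TPM but not on CPM (counts scaled to library size), where the lowest TKO-2i value was 1.31 and the highest TKO-serum value 1.17. Evx1, a homeobox gene of the posterior streak (plus strand, chromosome 6, 52313498 to 52318378), was at 0.878, 0.996 and 1.33 TPM against 0.902, 1.19 and 1.12 TPM. Its log2 fold change of 0.19 ± 0.20 was below the median of 0.41 over the 866 fitted genes of chromosome 6, and it was 0.32 without TKO-2i replicate 2, -0.05 without TKO-2i replicate 3 and -0.01 on log2(TPM + 0.1). The medians of the other members' chromosomes lay between -0.07 and 0.03. Mesp1, a bHLH factor of the earliest cardiac mesoderm (minus strand, chromosome 7, 79792241 to 79793788), gave 5, 4 and 3 counts in TKO-2i and 7, 10 and 12 in TKO-serum, or 0.113 ± 0.027 and 0.292 ± 0.068 TPM (SD, n = 3), at a limit of 3 counts that a count of 0 allows. Every TKO-serum library lay above every TKO-2i library for Mesp1, in CPM (lowest 0.181 against highest 0.112) and in TPM, the opposite direction to Cdx1 and T. Without the filter on low counts, edgeR fitted Mesp1 at a log2 fold change of -1.20 and did not call it.

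**Figure D1:**
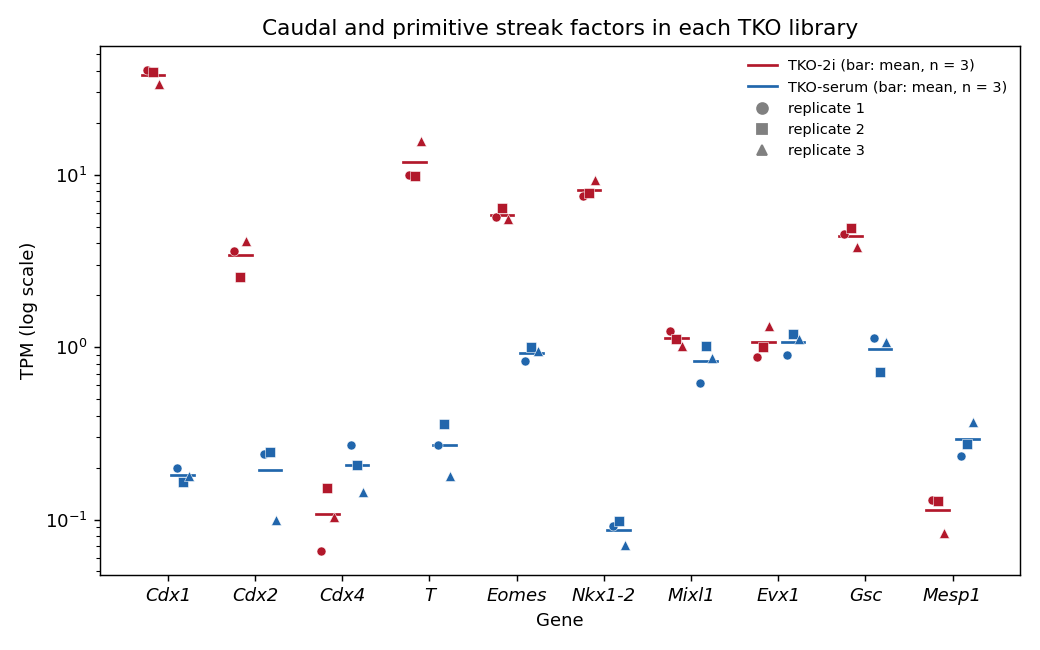
TPM on a log axis for each of the 10 genes, with 1 point per library, shape for the replicate number, red for TKO-2i, blue for TKO-serum and a bar at the mean of 3 libraries. Cdx1, T and Nkx1-2 stand highest in TKO-2i, at means of 37.8, 11.8 and 8.20 TPM, and the highest value in any TKO-serum library is 1.19 TPM, for Evx1.

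Ordered by mean TPM in TKO-2i, Cdx1 was followed by T, Nkx1-2, Eomes, Gsc, Cdx2, Mixl1, Evx1, Mesp1 and Cdx4. Neighbours in this order had ranges that overlapped for Gsc and Cdx2, for Mixl1 and Evx1, and for Mesp1 and Cdx4, and for no other pair. In TKO-serum the order was Evx1, Gsc, Eomes, Mixl1, Mesp1, T, Cdx4, Cdx2, Cdx1 and Nkx1-2, and only the steps from Mixl1 to Mesp1 and from Cdx1 to Nkx1-2 were free of overlap. Cdx1 thus moved from second lowest of the 10 in TKO-serum to highest in TKO-2i. Summed over the 10 genes, the level was 73.9, 73.3 and 74.8 TPM in TKO-2i and 4.79, 5.27 and 5.05 TPM in TKO-serum.

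Of the 10 genes, 8 passed the filter on low counts, and Cdx4 and Mesp1 did not. A gene was called when edgeR's quasi-likelihood test gave a Benjamini-Hochberg adjusted p under 0.05 over all 18177 genes fitted. That rule called 31.9% of all genes higher in TKO-2i and 30.6% lower, 62.5% in all, and it called 6 of the 8 higher and 0 lower, or 7 higher without TKO-serum replicate 2, where Mixl1 joined them. In CPM the 3 TKO-2i libraries all lay above the 3 TKO-serum libraries for 7 of the 8, and for 34.0% of all genes fitted. Because Cdx1, Cdx2 and Nkx1-2 passed the filter through TKO-2i, where they are high, these counts describe the choice of genes and carry no test.

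Among the TKO-2i libraries the genes did not vary together, a pattern described after its values were seen. T in replicate 3 was 1.69 times the mean of replicates 1 and 2 in CPM, Evx1 1.55 times, Cdx2 1.41 times and Nkx1-2 1.29 times. The same ratio was 0.919 for Cdx1, 0.967 for Eomes, 0.905 for Mixl1 and 0.874 for Gsc. Replicate 3 was therefore highest for 4 of the 8 fitted members, in CPM and in TPM, while it was highest for 25.1% of all fitted genes in CPM and 13.8% in TPM. Replicate 2 was lowest for 5 of the 8 in CPM (Cdx1, Cdx2, T, Nkx1-2 and Evx1) and 2 in TPM, and for 39.6% of all fitted genes in CPM and 15.8% in TPM. It was also the library farthest from the other TKO-2i libraries, with a chi-square per gene of 42 against replicate 1 and 25.6 against replicate 3, where replicates 1 and 3 gave 6.82. Over all fitted genes the median of this ratio was 1. Without replicate 3 the log2 fold change of T was 5.28 and that of Cdx2 4.09.

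T, Eomes and Evx1 have more than 1 annotated transcript, and how counts divide among them was not used to choose the genes. The full-length T-201 took 83.5%, 83.2% and 83.1% of T's estimated counts in TKO-2i, and the short T-203 took 9.1%, 9.1% and 9.7%. T-202 held 7.4%, 7.6% and 7.2%. In TKO-serum, where T had 13, 14 and 12 counts, T-201 took 90.9%, 64.8% and all of them, T-202 took 9.1%, 35.2% and 0.0%, and T-203 had 0 in each library. A count of 0 allows a share of up to 23.1%, 21.4% and 25% in these single libraries, above the T-203 shares in TKO-2i, and of up to 7.69% over the 39 counts together, limits for counting error that leave out the error of dividing reads among transcripts. No test between media is given for T transcripts at this depth. Eomes-203 took 2.4%, 2.1% and 2.5% of Eomes counts in TKO-2i and 5.9%, 4.9% and 5.0% in TKO-serum, where it rests on 4.3, 5.3 and 4.7 estimated counts. The difference of -2.9 percentage points did not overlap between media (exact two-sided permutation test, p = 0.1, the smallest that 3 against 3 libraries can give). Eomes-202 took 6.8%, 6.6% and 10.2% against 0.0%, 5.5% and 0.0% (exact permutation p = 0.1), and Eomes-201 held the rest, 89.8% ± 2.1 against 92.9% ± 2.9 (SD, n = 3). All but 5 of the counts of Evx1 were on Evx1-201.

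Of the 10 genes, 3 overlap another gene. The annotated Fgfr2 gene overlaps Nkx1-2 on the same strand, and Fgfr2 had 22, 22 and 15 counts in TKO-2i and 450, 632 and 504 in TKO-serum, the opposite direction to Nkx1-2. Evx1os, antisense to Evx1, had 15, 8 and 17 counts against 6, 17 and 8. Gm33460, antisense to Eomes, had at most 4 counts in any library. The library kit marks strand, the sources used here do not state the strand setting of the quantification, and how reads of these pairs were divided was not tested.

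The genes with the most similar profile were taken as those at the smallest Euclidean distance in centred log2 CPM over the 6 libraries, among 12872 other protein-coding genes with a mean of at least 1 CPM. Nkx1-2 was the gene nearest to Cdx1, at a distance of 1.57, followed by Dmgdh at 2.20 and Srarp at 2.48. The genes nearest to Nkx1-2 were Dmgdh at 0.787, Srarp at 1.07 and T at 1.33. Srarp was also nearest to T, at 0.583, before Bhmt and Cnga4. Those nearest to Cdx2 were Vax2, Csf3r and Jaml, those nearest to Eomes Bcl2l14, Spic and Pla1a at 0.165 to 0.171, and those nearest to Gsc Ncmap, Rnf43 and C1rl. Rtn4rl1, Clcn4 and Msx1 lay nearest to Mixl1, and Slc34a3, Nsun5 and Ip6k2 to Evx1. Since 6 libraries in 2 media fix most of such a profile, the lists say which genes had like steps and like spread, and no more.

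RefSeq promoters (GRCm38.p6, 250 bases before to 50 after the gene start) were used for 8 of the 10 genes, all but Cdx1 and Mixl1. No entry was used for Mixl1. Cdx1, the gene with the largest fitted rise of the 10, was left out and its promoter was not searched. The CpG range and motif counts below thus say nothing of Cdx1, and its absence from them does not mean that it lacks these motifs. Over the 8 promoters the CpG number ran from 4 in Mesp1 to 25 in Gsc, with 17 in T, 21 in Nkx1-2 and 10 in Eomes. The median over 32851 promoters was 7. Both strands were searched for the TCF/LEF motifs CTTTGAA and CTTTGAT, the T-box motif TCACACC and the CDX motif TTTATNG. TCF/LEF letters were in 2 of the 8 promoters, T and Mesp1, and in 8.65% of all promoters. CDX letters were in 2 of the 8, T and Evx1, and in 10.9% of all. The T-box letters were in 1 of the 8, Mesp1, and in 3.98% of all. A match is a description of the letters and does not show binding. The RefSeq start used for these windows is the start of the GENCODE gene for T, Nkx1-2, Evx1 and Cdx4. It lies 21, 94 and 198 bases inside the GENCODE gene for Cdx2, Gsc and Mesp1, and outside it for Eomes.

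The promoters of T, Nkx1-2 and Cdx2, which stood together on the 2i side, and of Mesp1, which did not, are printed 5′ to 3′ on the strand of the gene, with the matches in capitals. In T (chr17:8434173-8434472, plus strand) these are TTCAAAG, the reverse complement of the TCF/LEF motif CTTTGAA, at -235 and TTTATGG, a CDX motif, at -178 from the start, which both annotations share. In Mesp1 (chr7:79793541-79793840, minus strand) they are TTCAAAG at -73, CTTTGAT at -31 and TCACACC at 6 from the RefSeq start, 79793590, so all 3 lie inside the GENCODE gene, which starts at 79793788. Nkx1-2 (chr7:132599588-132599887, minus strand) and Cdx2 (chr5:147307200-147307499, minus strand) had none of the 4 motifs in this window.
T: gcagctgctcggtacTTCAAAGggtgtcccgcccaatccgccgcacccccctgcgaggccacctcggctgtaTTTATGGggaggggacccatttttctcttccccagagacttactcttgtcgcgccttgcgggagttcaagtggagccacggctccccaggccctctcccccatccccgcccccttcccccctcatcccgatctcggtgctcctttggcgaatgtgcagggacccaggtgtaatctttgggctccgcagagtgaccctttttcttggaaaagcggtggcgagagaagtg
Mesp1: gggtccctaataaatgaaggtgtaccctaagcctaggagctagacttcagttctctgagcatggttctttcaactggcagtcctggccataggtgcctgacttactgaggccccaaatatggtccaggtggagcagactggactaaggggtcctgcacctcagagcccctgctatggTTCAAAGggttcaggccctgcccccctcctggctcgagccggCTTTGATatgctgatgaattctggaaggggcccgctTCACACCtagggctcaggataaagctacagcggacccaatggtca
Nkx1-2: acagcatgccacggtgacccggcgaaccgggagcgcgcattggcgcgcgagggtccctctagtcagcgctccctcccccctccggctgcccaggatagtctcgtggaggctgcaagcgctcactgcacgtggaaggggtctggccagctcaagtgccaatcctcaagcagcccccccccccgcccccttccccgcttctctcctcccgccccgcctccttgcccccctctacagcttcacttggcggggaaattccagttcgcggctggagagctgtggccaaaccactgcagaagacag
Cdx2: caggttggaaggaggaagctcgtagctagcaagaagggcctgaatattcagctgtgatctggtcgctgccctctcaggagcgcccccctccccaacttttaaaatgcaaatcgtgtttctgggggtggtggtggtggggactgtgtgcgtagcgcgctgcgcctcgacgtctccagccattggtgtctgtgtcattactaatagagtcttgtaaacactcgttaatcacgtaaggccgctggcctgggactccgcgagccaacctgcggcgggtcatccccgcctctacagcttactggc

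Genes that work beside the 10 factors in the embryo were compared with the same fit, and the calls describe these lists, which were not independent of earlier results of these data. The counts of every list below stand beside 31.9% of all fitted genes called higher and 30.6% called lower, 62.5% in all. Where 0 genes of a list are given below as called in a direction, the count was also 0 at an unadjusted p under 0.05 by edgeR, with DESeq2 and with limma. Some fitted genes reached the filter's 0.225 CPM in all libraries of 1 medium only and entered the fit by their level there, so counts over genes that reached it in all 6 libraries are given for the lists that hold such genes. Of 18 genes of caudal progenitors and presomitic mesoderm, 15 were fitted, 2 were called higher in TKO-2i and 10 lower, with a median log2 fold change of -1.13 beside 0.01 over all fitted genes. Of the 12 that reached the filter in both media, 2 were higher and 8 lower (median -0.95). Both risers encode Wnt ligands: Wnt5b was at 15.7, 11.8 and 15.5 CPM in TKO-2i and 0.907, 0.695 and 0.827 CPM in TKO-serum (log2 fold change 4.16 ± 0.16, edgeR adjusted p = 2.3e-07), and Wnt3a rose by 1.59 ± 0.19. Wnt8a, another Wnt ligand gene of the list, named after its values were seen, fell, from 0.778, 0.846 and 0.740 CPM in TKO-serum to 0.357, 0.432 and 0.235 CPM in TKO-2i (-1.20 ± 0.26). At a mean of at least 1 CPM, Dll1, Fgf17 and Lfng fell the most. Cyp26a1, named after its values were seen, was below that mean and fell too (-3.68 ± 0.38), and it reached the filter in TKO-serum only. The Notch ligand Dll1 was at 0.245, 0.227 and 0.305 CPM in TKO-2i and 15.6, 14.5 and 14.7 CPM in TKO-serum (-5.83 ± 0.12), and the glycosyltransferase Lfng (-3.09 ± 0.14) and the ligand Fgf17 (-3.36 ± 0.12) were lower too. Thus T, Nkx1-2, Cdx1 and Cdx2 were high in TKO-2i in libraries where most fitted genes of this list were called lower.

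Genes of the streak, mesendoderm and nascent mesoderm numbered 22, of which 16 were fitted, 0 were called higher and 10 lower (median -0.39), or 0 and 8 of the 14 that reached the filter in both media (median -0.21). Without TKO-2i replicate 2, edgeR called 1 higher, Wnt3, at a log2 fold change of 0.80. Otx2, a homeobox gene of the anterior epiblast, was at 4.42, 4.37 and 4.20 CPM in TKO-2i and 34.9, 35.7 and 34.3 CPM in TKO-serum (-3.01 ± 0.06, edgeR adjusted p = 1.6e-08). The receptor gene Pdgfra (-2.50 ± 0.15) and the Nodal antagonist gene Lefty1 (-2.16 ± 0.08) fell as well. The list shares 6 of its 22 genes with the marker lists below.

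Wnt/β-catenin feedback targets went mostly the way of T and Cdx1. Of 14, 13 were fitted, 8 were called higher and 2 lower (median 0.52). Sp5, a zinc-finger repressor of Wnt targets, was at 30.1, 21.6 and 38.0 CPM in TKO-2i and 2.05, 1.97 and 2.55 CPM in TKO-serum (3.77 ± 0.22, edgeR adjusted p = 2.1e-06). Axin2, a scaffold of the β-catenin destruction complex, was at 118, 112 and 137 CPM against 11.9, 11.9 and 11.7 CPM (3.37 ± 0.09, adjusted p = 3.6e-08 by edgeR), and Rnf43, a ubiquitin ligase for Wnt receptors, rose by 2.67 ± 0.21. Replicate 3 of TKO-2i was the highest library for Sp5, as for T. For Axin2 it was highest in CPM but not in TPM (41.9, 47.8 and 46.5), and over the 13 fitted genes it was highest for 7 in CPM and 3 in TPM. Replicate 2 of TKO-2i was lowest for 9 of the 13 in CPM and for 2 in TPM. The 2 genes that fell were Nkd2 (-1.89 ± 0.11) and Lef1, at 3.99, 4.02 and 6.92 CPM against 10.3, 10.6 and 10.7 CPM (-1.09 ± 0.19).

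The TCF factors and the core of the β-catenin pathway were compared in the same way. Of 7 genes, all fitted, 4 were called higher and 1 lower (median 0.34), and without TKO-2i replicate 2 a second gene, Apc, was called lower (-0.25). Tcf7l2 (0.69 ± 0.12), Gsk3b, the gene of a kinase that CHIR99021 inhibits (0.68 ± 0.08), and Tcf7l1 (0.36 ± 0.06, on chromosome 6, where the median was 0.41) rose, and Ctnnb1, the β-catenin gene, fell from 820, 809 and 809 CPM in TKO-serum to 704, 685 and 714 CPM in TKO-2i (-0.21 ± 0.04, edgeR adjusted p = 0.0024). The ERK pathway lies downstream of the kinase that PD0325901 inhibits, and of 11 of its targets, all fitted, 1 was called higher and 10 lower (median -1.59), or 1 and 9 of the 10 that reached the filter in both media. Dusp6, an ERK phosphatase, was at 4.86, 4.64 and 4.83 CPM in TKO-2i and 36.4, 36.8 and 35.3 CPM in TKO-serum (-2.92 ± 0.06, edgeR adjusted p = 1.6e-08). Dusp4 (-3.23 ± 0.09) and Egr1 (-2.48 ± 0.13) fell, and Etv4 was the target that rose (0.49 ± 0.05), on chromosome 11, where the median was 0.26.

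T and Eomes belong to the T-box family, whose other genes were compared. Of 15, 11 were fitted, 5 were called higher and 2 lower (median 0.12), or 4 and 2 without Tbx5, which reached the filter in TKO-2i only. Tbx5 was at 2.86, 2.80 and 3.40 CPM in TKO-2i and 0, 0.150 and 0.0653 CPM in TKO-serum (5.20 ± 0.40), Tbx15 rose by 3.74 ± 0.16 and Tbx18 by 2.39 ± 0.21. Tbx3 and Tbx2 were the other 2, named after their values were seen, and Tbx3 was the most abundant of the 5 at 245, 251 and 242 CPM against 87.9, 84.3 and 85.2 CPM. Tbx4 fell (-1.50 ± 0.17). Tbx6, a presomitic mesoderm gene also named after its values were seen, was called lower at -0.76 ± 0.24 but not with DESeq2 (-0.79), nor without TKO-2i replicate 2 (-0.63) or 3 (-0.80) or TKO-serum replicate 1 (-0.70) or 3 (-0.74), which leaves 1 gene called lower. Tbx19 had 0 counts in all 6 libraries.

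Paralogues of Evx1, Nkx1-2, Gsc and Mesp1 were Evx2, Nkx1-1, Gsc2 and Mesp2. Of the 4, 3 were fitted, 0 were called higher and 2 lower (median -0.54), or 0 and 1 of the 2 that reached the filter in both media (median -0.20). Mesp2 was at 1.12, 1.11 and 1.08 CPM in TKO-2i and 1.40, 1.47 and 1.96 CPM in TKO-serum (-0.54 ± 0.18), a call lost without TKO-2i replicate 3 (-0.53) or TKO-serum replicate 3 (-0.38), either of which leaves 1. Nkx1-1, named after its values were seen, was at 0.134, 0.0909 and 0.0938 CPM against 0.700, 0.583 and 0.718 CPM (-2.61 ± 0.29), lower in 2i where Nkx1-2 was higher. It reached the filter in TKO-serum only.

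Hox genes of paralogue groups 5 to 9, many of which are known CDX targets in the embryo, were read next. Of 15, 11 were fitted, and 11 were called higher and 0 lower (median 3.01). Of these 11, 6 (Hoxa5, Hoxa9, Hoxc5, Hoxc6, Hoxc8 and Hoxc9) reached the filter in TKO-2i only and entered the fit by their level there. The 5 that reached it in both media were all called higher (median 2.66). Of the 4 not fitted, Hoxb5 and Hoxb6 had at most 2 counts in any library, Hoxb8 at most 3 and Hoxa6 at most 6. Hoxd9 was at 7.63, 7.55 and 7.60 CPM in TKO-2i and 0.752, 0.977 and 0.827 CPM in TKO-serum (3.14 ± 0.12, edgeR adjusted p = 2e-07). Hoxb9 (2.84 ± 0.14) and Hoxa9 (3.45 ± 0.20) rose as well. Summed over the 15 genes, the level was 20.6, 23.6 and 22.3 TPM in TKO-2i and 3.27, 3.91 and 3.46 TPM in TKO-serum, below the level of Cdx1 alone in each TKO-2i library. Hoxb7, named after its values were seen, was not called with DESeq2 (0.84), nor without TKO-2i replicate 1 (0.70) or TKO-serum replicate 2 (0.88) or 3 (0.66). Whether these Hox genes depend on the Cdx genes was not tested.

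Genes bound by CDX factors in the intestine were mostly under 1 CPM in both media. Of 10, 4 were fitted, 0 were called higher and 2 lower (median -0.45), or 0 and 1 of the 3 that reached the filter in both media (median -0.30), and 1 of the 10 had a mean of at least 1 CPM in either medium. That gene was Vil1, at 1.23, 0.932 and 0.961 CPM in TKO-2i and 2.05, 1.43 and 1.28 CPM in TKO-serum (-0.59 ± 0.22), a call lost with limma on log2(TPM + 1) and log2(TPM + 0.1) and without TKO-2i replicate 2 (-0.51) or 3 (-0.54) or TKO-serum replicate 1 (-0.38) or 2 (-0.67). Krt20, named after its values were seen, did not pass the filter over all 6 libraries but passed it and was called lower without TKO-2i replicate 2 or 3 or TKO-serum replicate 1, so 2 genes of the list were called lower there, and 1 was with limma or without TKO-serum replicate 2. Sis, the other gene called lower and named after its values were seen, was at 0.0893, 0.0909 and 0.0469 CPM against 0.389, 0.545 and 0.326 CPM, and it reached the filter in TKO-serum only. The list summed to 1.19, 1.64 and 0.886 TPM in TKO-2i and 2.19, 1.42 and 1.68 TPM in TKO-serum, and Fabp2 had 0 counts in every library.

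**Figure D2:**
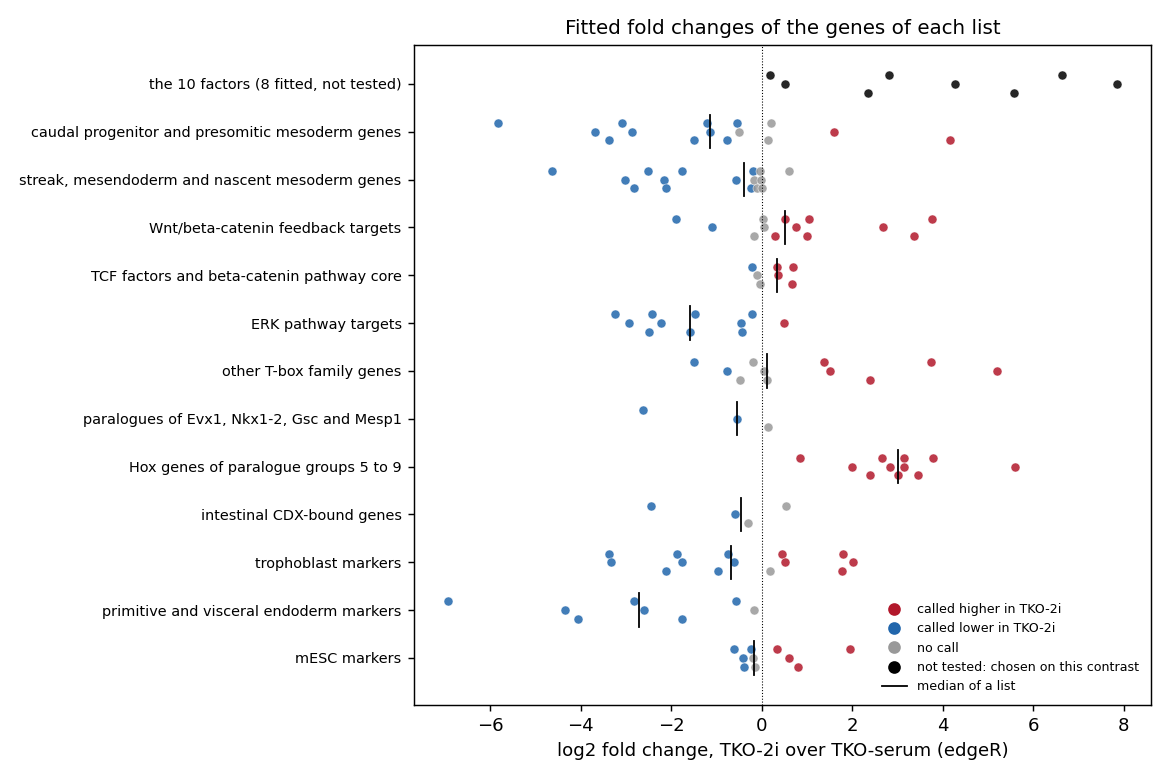
Fitted log2 fold changes (horizontal axis, TKO-2i over TKO-serum) of every fitted gene, 1 row per list, in red where called higher, blue where called lower and grey where not called, with a line at each list's median. The 8 fitted factors are in black because they were chosen on this contrast, the fitted Hox genes lie above 0 (5 reached the filter in both media and 6 in TKO-2i only), and 9 of the 10 ERK targets that reached it in both media lie below 0.

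Cdx2 and Eomes are also trophoblast genes, and Eomes and Gsc are also expressed in visceral endoderm, so markers of both tissues were read beside them. Of 16 trophoblast markers, 14 were fitted, 5 were called higher and 8 lower (median -0.68), or 5 and 6 of the 12 that reached the filter in both media (median -0.21), and 8 of the 16 had a mean of at least 1 CPM in both media. Their sum was 122, 123 and 117 TPM in TKO-2i and 82.2, 82.8 and 81.2 TPM in TKO-serum. Krt8, a keratin of many epithelia, was the most abundant in TKO-2i (44.2, 41.3 and 44.3 TPM), and Tfap2c was the most abundant in TKO-serum (23.1, 23.8 and 22.4 TPM). Tfap2a (2.02 ± 0.12), Tead4 (1.79 ± 0.06) and Krt8 (1.78 ± 0.10) rose, and Ascl2 (-3.37 ± 0.20), Hand1 (-2.11 ± 0.21) and Krt7 (-1.75 ± 0.17) fell. Elf5, a defining gene of trophoblast stem cells, had 14, 15 and 16 counts in TKO-2i and 14, 13 and 14 in TKO-serum, and the placental genes Tpbpa and Prl3d1 had at most 2 counts in any library. The part of other cell types in the levels of Cdx2 and Eomes was not tested.

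Of 10 markers of primitive and visceral endoderm, 4 of them shared with the streak list, 8 were fitted, 0 were called higher and 7 lower (median -2.71). Cubn, Sox7 and Foxa2 reached the filter in TKO-serum only, and of the other 5 fitted genes 4 were called lower (median -1.75). Their sum was 4.90, 6.04 and 5.24 TPM in TKO-2i, with Gata4 the most abundant, and 18.9, 22.4 and 24.5 TPM in TKO-serum, with Dab2 the most abundant. Cubn, an endocytic receptor gene of visceral endoderm, was at 0.134, 0.227 and 0.188 CPM in TKO-2i and 20.8, 23.4 and 23.3 CPM in TKO-serum (-6.93 ± 0.14), and Dab2 (-4.35 ± 0.11) and Sox7 (-4.05 ± 0.22) fell with it. Ttr was at 0 in the 3 TKO-2i libraries and at 1, 4 and 1 counts in TKO-serum. Gata4 was not called by edgeR, with a log2 fold change of -0.17 ± 0.12, but was called lower by limma on log2(TPM + 1) (-0.46) and log2(TPM + 0.1) (-0.59). The 7 that fell did so in the medium in which Eomes and Gsc were higher, and their part in the result was not tested.

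The mESC markers were high in all 6 libraries. All 10 had a mean of at least 1 CPM in both media, and their sum was 5691, 5280 and 5191 TPM in TKO-2i and 6266, 5960 and 6040 TPM in TKO-serum, with Dppa5a the most abundant in each. Of the 10, 4 were called higher and 4 lower (median -0.16). Tfcp2l1 (1.96 ± 0.09), Klf4 (0.80 ± 0.05) and Nanog (0.60 ± 0.06, on chromosome 6, where the median was 0.41) rose, and Sall4 (-0.60 ± 0.05), Sox2 (-0.41 ± 0.05) and Zfp42 (-0.40 ± 0.06) fell. Cdx1, the highest of the 10 factors, was at 37.8 ± 3.6 TPM in TKO-2i (SD, n = 3), where Dppa5a alone was at 2535, 2081 and 2206 TPM.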

How the data were processed

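RNA-seq libraries of 3 TKO-2i and 3 TKO-serum samples were used. The authors deposited estimated counts and TPM per transcript, with mm10 named as the genome build in the labels. The paper describes mapping to mm10 with Tophat and RPKM scores per gene. The quantifier of the deposited transcript values and its settings are not given in the sources used here. Of 136288 transcripts, 136100 (99.86%) matched GENCODE M21 names, and the rest held 0.0473% to 0.0643% of each library's counts. Counts and TPM were summed per gene, and summed counts were rounded to whole numbers. The limit that 0 counts allows, 3 counts, was 0.0578 to 0.0784 CPM and covers counting error only.

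Genes were filtered with filterByExpr, scaled by TMM and tested between media with edgeR 4.0.16 (quasi-likelihood, no covariate, Benjamini-Hochberg over all genes, adjusted p under 0.05). On simulated data it recovered, with the right sign, 84 of 112 genes changed by a log2 fold of 1 and 83 of 88 changed by 2. False calls there numbered 10 over 18177 genes. SE of a log2 fold change was its size over the square root of F. For large changes with few counts in 1 medium, this SE can understate the error, counting error included. Alternatives used DESeq2 1.42.0, limma 3.58.1 on log2(TPM + 1) and log2(TPM + 0.1), other filters and size factors, a replicate block, and each library left out. Replicates of 1 medium differed beyond sampling noise (chi-square per gene 4.47 to 42). The 10 genes and all gene lists were chosen with earlier results of these data known. Named from each list were up to 3 called genes with the largest rise and 3 with the largest fall at a mean of at least 1 CPM, and for marker lists the most abundant gene and genes at 0.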

Additional observations from a re-analysis of the deposited data

How the results depend on the processing

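The 48 tested genes named by rule gave 620 values under the alternatives. Of these, 610 stayed called in the same direction, 10 were no longer called and 0 reversed. The calls lost were those of Mesp2, Vil1 and, with limma on TPM, Dnmt1. Of the 8 fitted factors, only Evx1 changed sign. Limma on log2(TPM + 1) gave lower values by construction, 5.04 for Cdx1 and 3.31 for T.

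Counts of calls that moved by over 1.5 times were these. DESeq2 called 1 other T-box gene lower, not 2. With at least 10 counts in every library, 5 Hox genes were called higher of 5 fitted, 4 endoderm markers lower of 5 fitted, 1 paralogue lower of 2 fitted and 1 intestinal gene lower of 3 fitted, since fewer genes were fitted. That filter also left 5 of the 10 factors, with 3 called higher. Without a filter 4 of 9 intestinal genes were called lower, and with limma on either TPM scale 1 of 4. With each library left out in turn, called lower were 1 to 2 other T-box genes, 1 to 2 paralogues, 1 to 2 intestinal genes and 1 to 2 genes of the TCF and β-catenin core, and 0 to 1 streak genes were called higher. Apart from the named cases the cause was not tested.

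The media share replicate numbers, and same-numbered libraries deviated together with correlations across genes of 0.242, 0.329 and 0.014. Between libraries of different numbers the correlations ran from -0.326 to 0.123. The main fit did not use the numbers as a pairing, and whether they mark a pairing was not settled. Of the 6 libraries, 5 correlated best with their own number. With the replicate block 12539 of 18177 genes were called, against 11361 without it. On TPM as deposited, a comparison chosen after seeing the data, replicate 3 of TKO-2i was highest for 4 of the 8 fitted factors, as in CPM, and replicate 2 lowest for 2, against 5 in CPM. The T-box letters of Mesp1 lie after the RefSeq start, and 0 promoters of the 8 held them in the 250 bases before it. That start is 198 bases inside the GENCODE gene. Depth limits what can be said of Cdx4, of Mesp1, of T transcripts in serum and of the serum levels of Cdx1, Cdx2, T and Nkx1-2.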
